A study of Sus scrofa with 2 samples.

Results

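The vascular growth factors and receptors were 10 genes, namely the ligands VEGFA, VEGFC, ANGPT1 and ANGPT2, the receptors FLT1, KDR and TEK, and the endothelial genes PECAM1, CDH5 and NOS3. A gene was read as the sum of the rows whose RefSeq accession belongs to it, with the version number left aside. By this rule 7 of the 10 genes had rows, 9 rows in all, among 11071 genes with a matched symbol and 43699 rows of the table. VEGFC, TEK and CDH5 had no matched row, and no value is given for them. ANGPT2 had 2 rows, and each was at 0 RPKM in each library. VEGFA, ANGPT1, FLT1, KDR, PECAM1 and NOS3 were above 0 in both libraries.

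The tissue was endometrium from pregnant pigs of the Yorkshire breed at day 18 (YK18), taken after artificial insemination and flushing of the uterine horns. The study raised its pigs in 1 herd under the same conditions. There were 2 pigs with 1 RNA-seq library each, named replicate 1 and replicate 2 here, and no other day or breed was analysed here. No contrast between conditions was therefore possible, and the comparisons are between genes within a library and between the 2 pigs. The deposited values are reads per kilobase per 1000000 reads (RPKM).

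The lining of the uterus builds new capillaries around implantation, and in the pig, whose placenta does not invade, the vessels of mother and conceptus come to lie close together on either side of the epithelium. VEGFA is the main growth signal of blood vessels. It acts on KDR, the receptor that drives endothelial growth and permeability, and on FLT1, which binds the ligand tightly but signals weakly. ANGPT1 steadies vessels through the receptor TEK, and ANGPT2 can oppose it there. PECAM1 and CDH5 hold endothelial cells together, and NOS3 makes the nitric oxide that relaxes vessels. In whole tissue, fewer cells of a type and less RNA per cell cannot be told apart.

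The depth behind the values was worked out from the steps by which low RPKM values rise. It was 7466979 reads in replicate 1 and 7023108 reads in replicate 2. Every one of the 25584 rows above 0 in either library gave whole reads in both, to within 1e-06 of a read and the rounding of the values. The lengths that had entered the RPKM were short, with a median of 216 nt over mRNA rows. They came to 83 nt for VEGFA, 145 nt for NOS3, 200 nt for KDR, 215 nt for ANGPT1 and 223 nt for FLT1. Levels of different genes are thus given both per length, in RPKM, and as reads per 1000000 reads with no division by length. Intervals are exact 95% Poisson or Clopper-Pearson intervals and cover counting error only.

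KDR stood far above the other members. It was at 3764 RPKM in replicate 1 and 3183 in replicate 2, a mean of 3473 ± 411 RPKM (SD, n = 2 pigs). These values came from 5621 and 4471 reads. Only 146 of 38698 genes and unmatched transcripts were higher in replicate 1, and 177 in replicate 2. KDR lay at percentile 99.3 and 99.2 of the features above 0 in both libraries. The ratio of replicate 2 to replicate 1 was 0.846 in reads per 1000000 reads, with an interval of 0.813 to 0.880. The library of replicate 1 thus held somewhat more KDR, beyond counting error.

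FLT1, the other receptor of VEGFA, was at 790.3 RPKM in replicate 1 and 626 in replicate 2, with a mean of 708 ± 116 RPKM (SD, n = 2). It had 1316 and 980 reads. The ratio between the pigs, 0.792 with an interval of 0.728 to 0.861, had the same direction as that of KDR. KDR exceeded FLT1 4.76-fold in replicate 1 and 5.09-fold in replicate 2, and on the log2(RPKM + 1) scale FLT1 minus KDR was -2.30 ± 0.07 (SD, n = 2). In reads KDR exceeded FLT1 4.27-fold and 4.56-fold. The proportion of these receptors to each other was close in the pigs, since the odds ratio of their reads was 0.936 with an interval of 0.853 to 1.03.

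Of the 6 members above 0, VEGFA differed most between the pigs. It was at 476 RPKM in replicate 1 and 809.7 in replicate 2, with a mean of 643 ± 236 RPKM (SD, n = 2) and an SD of 36.7% of the mean. It had 295 and 472 reads, and stood at percentile 90.7 and 94.6. The ratio of replicate 2 to replicate 1 was 1.70 with an interval of 1.47 to 1.97, and it was the only member whose interval lay above 1. On the log2 scale the ratio of VEGFA was 0.77, about as far from the median of 0.06 over all features tested as their SD of 0.72. Those features reached down to a mean of 1 RPKM, whereas the mean of VEGFA was 643 RPKM. Set beside it were 8 genes used by every cell, listed with their values known and each with a mean of at least 1 RPKM. Their log2 ratio had a median of 0.03 and ran from -0.53 for GAPDH to 0.53 for B2M. B2M rested on 41 and 56 reads, and its interval of 0.953 to 2.23 included 1. Only GAPDH, with an interval of 0.644 to 0.742, excluded 1 among the 8 genes.

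**Figure D1:**
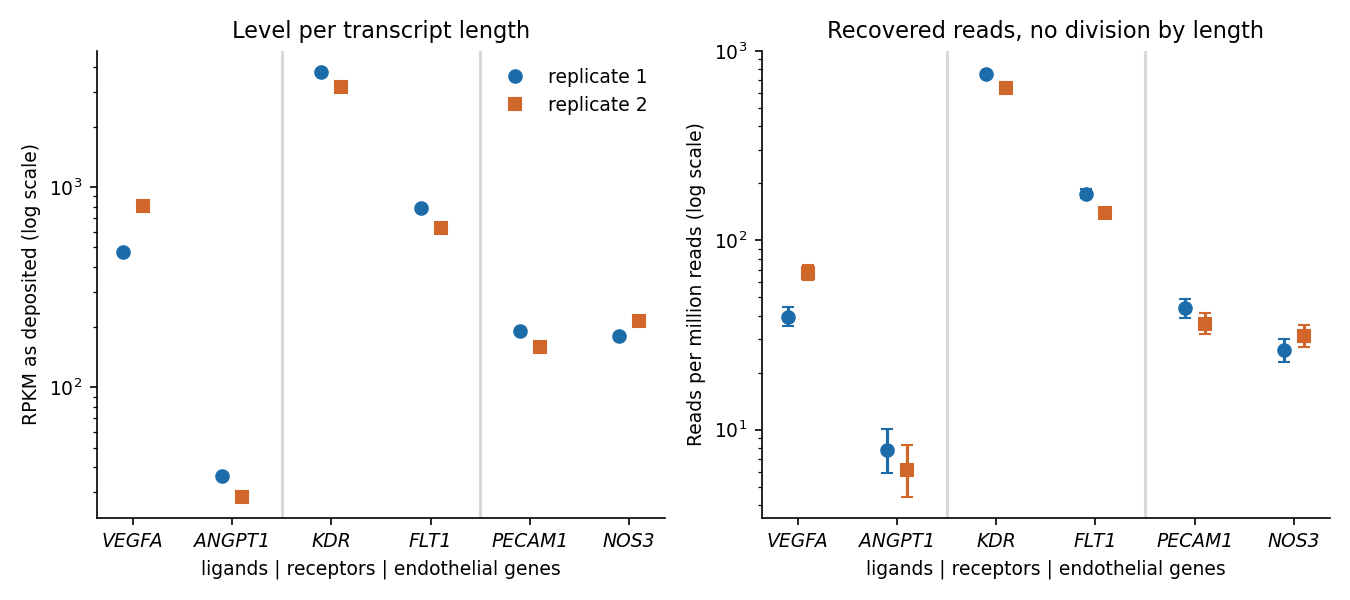
Levels of the 6 members above 0 in the 2 pigs, in RPKM on the left and in reads per 1000000 reads on the right, both on log axes. Points are single libraries and bars on the right are exact 95% Poisson intervals. KDR is the highest in both pigs and on both scales, and ANGPT1 the lowest. VEGFA is higher in replicate 2, at 809.7 against 476 RPKM.

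ANGPT1 was the lowest of the members above 0. It was at 36.1 RPKM in replicate 1 and 28.5 in replicate 2, a mean of 32.3 ± 5.41 RPKM (SD, n = 2), from 58 and 43 reads. The ratio between the pigs was 0.788, and the interval of 0.519 to 1.19 included 1. VEGFA exceeded ANGPT1 13.2-fold in replicate 1 and 28.4-fold in replicate 2. No ratio of ANGPT2 to ANGPT1 is given, because ANGPT2 was listed at 0. Such a 0 is not a statement of absence here, as EEF1A1, FTL and FTH1, which every cell uses, were at 0 as well. Values at 0 were more frequent for genes with several rows. Of 8238 genes with 1 matched row 21.1% were at 0 in both libraries, of 1710 genes with 2 rows like ANGPT2 40.4%, and of 1123 genes with 3 or more rows 46.4%. The median of the mean reads was 16.2 for genes with 1 row and 1 for genes with 2 rows. The part of this in the value of ANGPT2 was not tested.

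PECAM1 and NOS3 stood for the endothelial cells themselves. PECAM1, an adhesion molecule that leukocytes and platelets also carry, was at 192 RPKM in replicate 1 and 159 in replicate 2, with a mean of 176 ± 23.0 RPKM (SD, n = 2). Its rows were uneven. The transcript XM_005668680.1 gave 321 and 252 reads and 97.8% and 98.3% of the gene's RPKM, whereas NM_213907.1 gave 5 and 3 reads. The ratio between the pigs was 0.832 with an interval of 0.703 to 0.983. NOS3 was at 181 RPKM in replicate 1 and 215 in replicate 2, with a mean of 198 ± 24.1 RPKM (SD, n = 2), from 196 and 219 reads. Its ratio of 1.19 had an interval of 0.975 to 1.45, which included 1.

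The order of the mean levels was KDR, FLT1, VEGFA, NOS3, PECAM1 and ANGPT1. Of the 15 pairs of these genes 13 had the same order of RPKM in both pigs. The 2 pairs that did not were neighbours in this order. FLT1 was above VEGFA in replicate 1 and below it in replicate 2, and PECAM1 was above NOS3 in replicate 1 and below it in replicate 2, so neither pair differed beyond the spread between the pigs. In reads 14 of the 15 pairs kept their order. FLT1 then exceeded VEGFA in both pigs, 4.46-fold and 2.08-fold, and PECAM1 exceeded NOS3 in both. The pair that changed order in reads was VEGFA and PECAM1, with 295 against 326 reads in replicate 1 and 472 against 255 reads in replicate 2.

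KDR was above both ligands in each pig, whereas the endothelial genes lay between them, with PECAM1 and NOS3 below VEGFA and above ANGPT1. The median log2(RPKM + 1) of VEGFA and ANGPT1 was 7.06 in replicate 1 and 7.27 in replicate 2, and that of FLT1, KDR, PECAM1 and NOS3 was 8.61 and 8.52. The difference of ligands minus the others was -1.55 and -1.25, a mean of -1.40 ± 0.21 (SD, n = 2). Against the receptors alone it was -3.44 ± 0.36, and against PECAM1 and NOS3 alone -0.38 ± 0.16. The summed RPKM of the receptors was 4554 and 3809, of the ligands 512 and 838, and of the endothelial genes 373 and 374. These are levels of genes, which are not replicates, and they depend on the short lengths named above. When accessions were matched with their version number, FLT1 and KDR had no row, PECAM1 kept only NM_213907.1 and stood at 3.39 RPKM, and the difference turned to 2.29.

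The proportion of VEGFA to its receptors differed between the pigs. KDR exceeded VEGFA 7.91-fold in RPKM in replicate 1 and 3.93-fold in replicate 2. The odds ratio of VEGFA to KDR reads, replicate 2 against replicate 1, was 2.01 with an interval of 1.73 to 2.35. This ratio does not depend on how the libraries are scaled. For VEGFA to FLT1 it was 2.15 (1.81 to 2.55), for VEGFA to ANGPT1 2.16 (1.39 to 3.37), for VEGFA to PECAM1 2.04 (1.63 to 2.56) and for VEGFA to NOS3 1.43 (1.12 to 1.84). These values share the reads of VEGFA and restate its own ratio against those of the other members, so they are no separate findings. Between the receptors and the endothelial genes the odds ratio was 0.952 (0.789 to 1.15) for FLT1 to PECAM1, 1.02 (0.856 to 1.21) for KDR to PECAM1, 0.667 (0.537 to 0.827) for FLT1 to NOS3 and 0.712 (0.582 to 0.871) for KDR to NOS3. The odds ratios were added after the values had been seen, and their intervals cover counting error only.

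**Figure D2:**
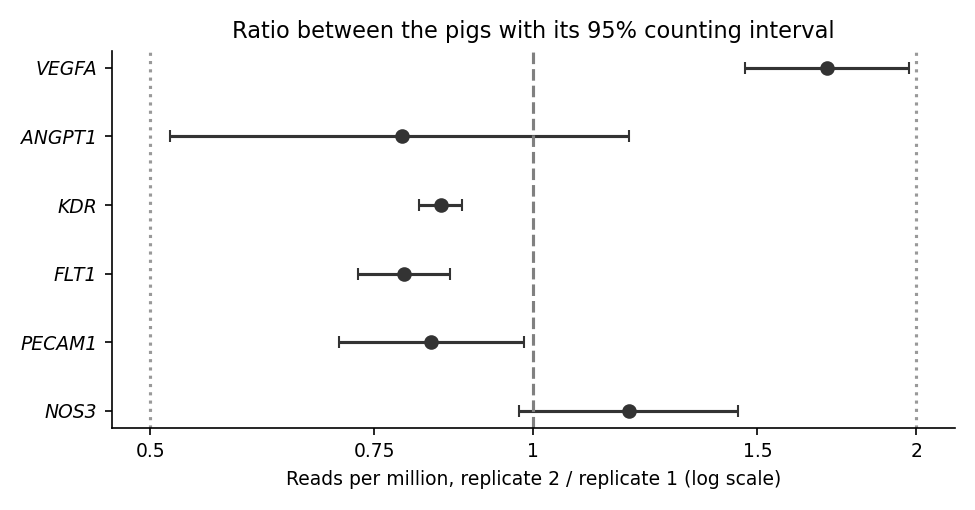
Ratio of replicate 2 to replicate 1 in reads per 1000000 reads for the 6 members, on a log axis, with exact 95% intervals for counting error. The dashed line marks no difference and the dotted lines a 2-fold difference. VEGFA lies above 1 at 1.70, KDR, FLT1 and PECAM1 lie below 1, and the intervals of ANGPT1 and NOS3 include 1.

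None of the 6 members reached a 2-fold difference between the pigs on the log2(RPKM + 1) scale, where 12.9% of the 19854 genes and unmatched transcripts whose mean reached 1 RPKM did. Of the 19854 features, 8.40% were 2-fold higher in replicate 2 and 4.54% in replicate 1. Among features with a mean of at least 5 RPKM, which all 6 members had, 7.77% were past 2-fold. The median log2 ratio of the members was -0.25 against 0.06 over the 19854 features, with 4 members lower and 2 higher in replicate 2. By the interval of the read ratio 4 of the 6 members excluded 1, namely VEGFA above it and FLT1, KDR and PECAM1 below it. Over all features the interval excluded 1 for 26.0%, lay above it for 14.6% and below it for 11.4%. The share was 31.0% over genes with a matched symbol alone, and 47.1% over 104 other genes of vessels, with 33 above 1 and 16 below it. The interval narrows with the number of reads, so a gene of many reads such as KDR excludes 1 at a small difference, and at a level of 99% PECAM1 no longer did.

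**Figure D3:**
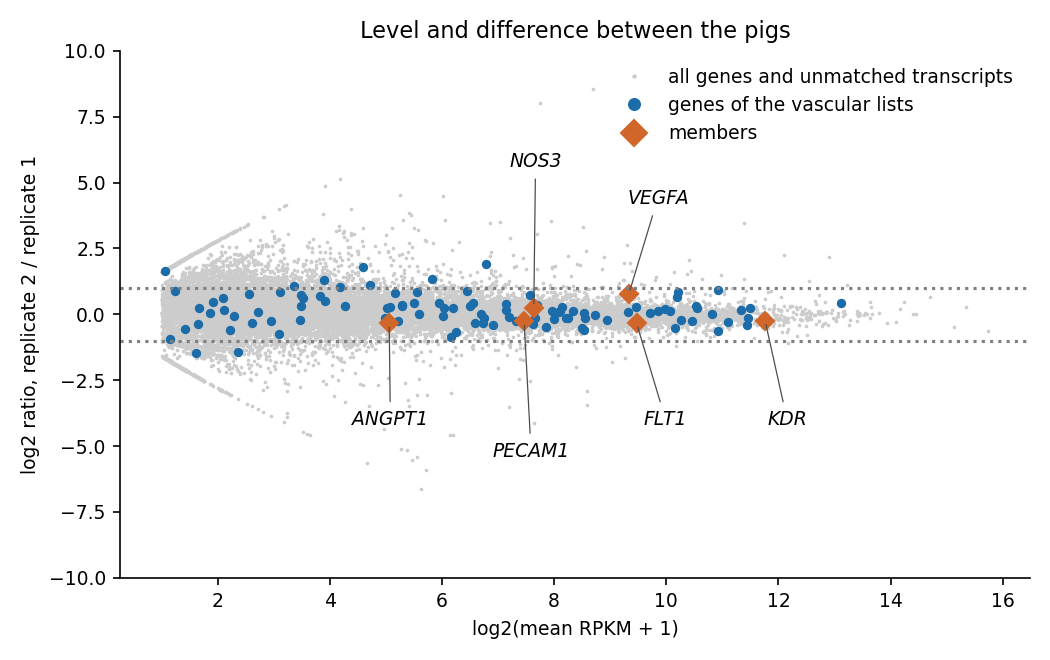
Difference between the pigs against level for all genes and unmatched transcripts whose mean reached 1 RPKM (grey), the other vascular genes (blue) and the members (orange). The horizontal axis is log2(mean RPKM + 1), the vertical axis the log2 of the ratio between replicate 2 and replicate 1, and dotted lines mark a 2-fold difference. The members lie inside these lines, between -0.34 for FLT1 and 0.77 for VEGFA.

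Around the members stood 186 other genes of vessels in 11 lists, of which 133 had a matched row and 19 were at 0 in both libraries, while 104 reached a mean of 1 RPKM. Of these 104 genes 10 differed at least 2-fold, which is 9.62% and close to the 12.9% of all features. Replicate 2 was the higher in 8 of the 10, and in 1667 of the 2568 features past 2-fold among all features tested. The median log2 ratio was 0.12. EPAS1 was the only one of the 104 with a higher mean than KDR, and 21 were above VEGFA.

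Among the remaining VEGF genes and coreceptors, VEGFD, a ligand mainly of lymphatic vessels, was at 91.2 RPKM in replicate 1 and 49.2 in replicate 2. Its 203 and 103 reads gave an interval of 0.421 to 0.687, below 1 and so opposite to VEGFA. NRP1, a coreceptor of KDR, was at 2.36 and 4.19 RPKM over 5 rows. PGF, the placental ligand of FLT1, was at 3.49 and 0.619 RPKM over 2 rows. It was past 2-fold, but from 6 reads and 1 read. VEGFB had 0 reads and 1 read, also over 2 rows. As given above, the median of the mean reads was 1 for genes with 2 rows. FLT4 and NRP2 had no matched row.

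PTPRB, the phosphatase that restrains TEK in vessels, was the highest gene of the list of angiopoietin and TIE genes, at 2972 and 2685 RPKM. That is near the level of KDR. ANGPTL2 was at 39.3 and 32.6 RPKM. DOK2, an adaptor that binds TEK, was 2-fold higher in replicate 2, at 7.66 and 20.2 RPKM from 21 and 52 reads. ANGPTL7 was past 2-fold on 0 reads and 1 read. TIE1 and ANGPT4 had no matched row.

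Other endothelial genes were present at a wide range of levels. Of 28 with a row 22 reached a mean of 1 RPKM and 11 a mean of 100 RPKM, with a median of 73.2 RPKM. VWF, the clotting factor stored in endothelium, was at 2452 and 2732 RPKM, and VCAM1, an adhesion molecule of activated vessels that stromal cells can also make, at 1345 and 2538.5 RPKM. ICAM1, a further adhesion molecule, was the only one past 2-fold, with 15.8 and 34.8 RPKM from 41 and 85 reads. ENG, LYL1 and PROCR were at 0. Of the 9 genes fixed as endothelial markers 6 had a row and none of these was at 0. CD34 had only 5 and 6 reads over 2 rows, however, and EGFL7 18 and 23 reads. The summed level of the 6 genes was 2843 RPKM in replicate 1 and 3093 in replicate 2, most of it VWF, and their median log2 ratio was 0.19.

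JAG1 and EPHB4 led the arterial, venous and Notch genes. JAG1, a Notch ligand, was at 2420.4 and 1981 RPKM, and EPHB4, a receptor of venous endothelium, at 884 and 961 RPKM. DLL1 was past 2-fold at 5.66 and 12.9 RPKM, from 12 and 26 reads. Of the lymphatic list, LYVE1 with 10.9 and 23.3 RPKM and CCL21 with 9.74 and 36.2 RPKM were past 2-fold toward replicate 2, from 33 and 66 reads and from 4 and 14 reads. PDPN was at 0, and PROX1 had 0 and 2 reads. Mural cells, which wrap the endothelium, showed the channel subunit ABCC9 at 1526 and 1277 RPKM and RGS5 at 1344 and 944 RPKM. None of their 7 genes with a mean of at least 1 RPKM was past 2-fold. Replicate 1 was the higher in 6 of the 7, where 43.7% of all features tested were higher in replicate 1. The interval lay below 1 for 3 of the 7, and for 11.4% of all features tested. That share is over features down to a mean of 1 RPKM, and the interval narrows with the number of reads. ANPEP, NDUFA4L2, ACTA2 and CNN1 were at 0.

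In the nitric oxide pathway, to which NOS3 belongs, the 11 genes with a row all had a mean of at least 1 RPKM, with a median of 269 RPKM. HSP90AA1, a chaperone that binds NOS3, was at 3183 and 2388 RPKM, and CALM2, a gene of the calmodulin that activates it, at 2626 and 3136 RPKM. None was past 2-fold. Among 14 genes of VEGF signalling, RAC1 was at 1332 and 1640.1 RPKM and CDC42 at 1023 and 1128 RPKM. SPHK1 was past 2-fold toward replicate 1, at 6.51 and 1.80 RPKM from 19 and 5 reads. SRC, HSPB1 and SH2D2A were at 0.

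Hypoxia is a known inducer of VEGFA, and its part in the values of VEGFA here was not tested. EPAS1, the hypoxia-inducible factor subunit typical of endothelium, was at 7576 RPKM in replicate 1 and 10214 in replicate 2, and HIF1A at 1805 and 1802 RPKM. Of the 10 hypoxia genes that reached a mean of 1 RPKM 3 had the higher value in replicate 1, against the 43.7% of all features given above, and none was past 2-fold. The read ratio interval lay above 1 for 4 of them and below 1 for 1, PGK1, at 1315 and 1136 RPKM. Over all features tested the interval lay above 1 for 14.6% and below 1 for 11.4%. A mean of at least 100 RPKM was reached by 6 of the 10 hypoxia genes, and these shares do not allow for their reads. ARNT and CA9 were at 0. Of 12 other angiogenic factors and receptors, MET was at 2383 and 1519.7 RPKM and EDNRA at 269.6 and 190.8 RPKM. HBEGF and CXCR4 were past 2-fold toward replicate 2. HBEGF, an EGF-like growth factor, was at 45.0 and 173 RPKM from 42 and 152 reads, and CXCR4, a chemokine receptor of leukocytes and sprouting vessels, at 31.3 and 79.9 RPKM from 124 and 298 reads. Of 8 antiangiogenic factors 1 had the higher value in replicate 1, against 43.7% of all features tested. An interval above 1 was found for 5 of the 8, against 14.6% of all features tested. A mean of at least 100 RPKM was reached by 7 of the 8, and the interval narrows with the number of reads. Their median log2 ratio was 0.23. THBS1 was at 845 and 1517 RPKM and ADAMTS1 at 899.8 and 1434 RPKM, and none was past 2-fold.

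**Figure D4:**
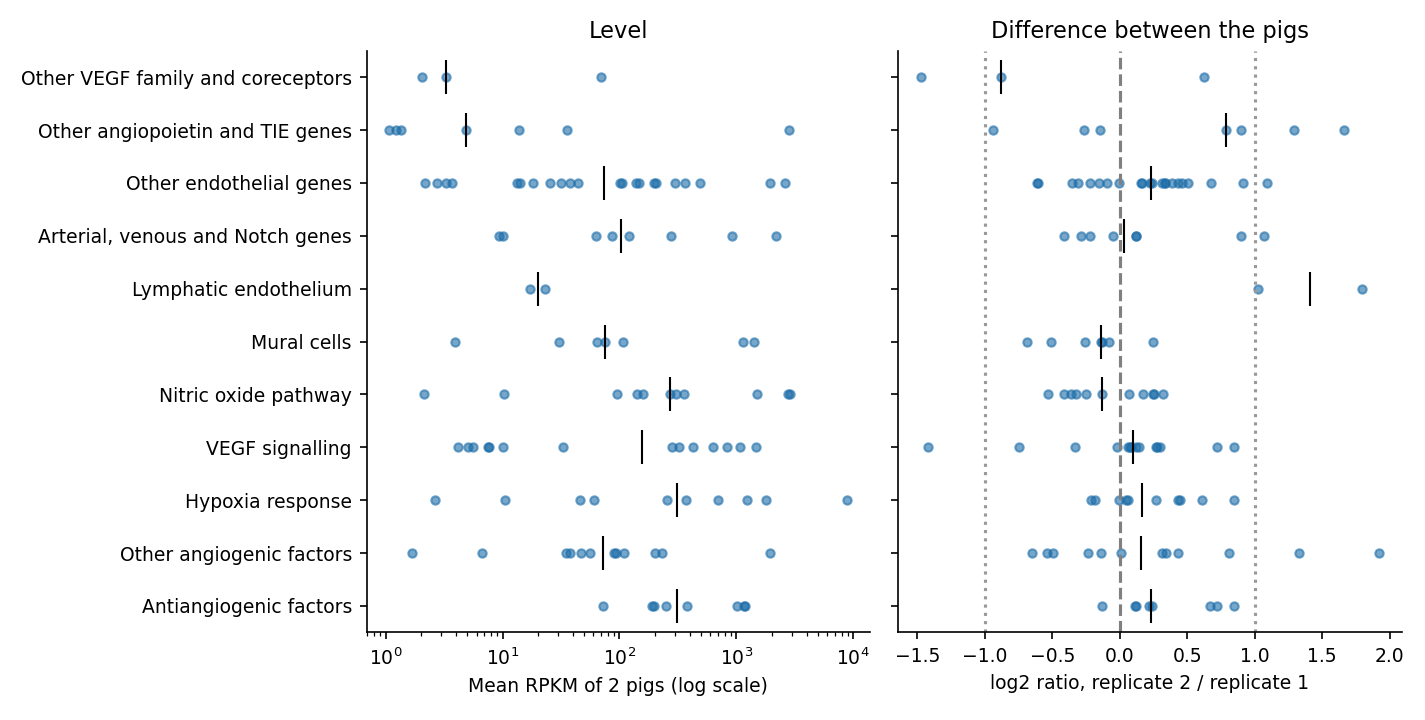
Genes of the 11 vascular lists whose mean reached 1 RPKM, by mean level on the left (log axis) and by log2 of the ratio between replicate 2 and replicate 1 on the right. Each point is a gene, the black mark is the median of the list, and dotted lines mark a 2-fold difference. The highest point is EPAS1 of the hypoxia list, and both lymphatic genes shown lie to the right of the 2-fold line.

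Genes of other cell types also differed between the pigs, and their part in the values of VEGFA and the receptors was not tested. The erythrocyte list, with 3 of 4 genes matched and ALAS2 at 0, summed to 3553 RPKM in replicate 1 and 8457 in replicate 2, nearly all of it HBB. The leukocyte list, with 5 of 6 genes matched, was led by PTPRC and summed to 909 and 1383 RPKM. The interval lay above 1 for 3 of the 5, and for 14.6% of all features tested, a share that does not allow for the number of reads. The platelet list summed to 59.8 and 72.7 RPKM, nearly all of it ITGA2B, with PPBP and GP1BB at 0 and no interval that excluded 1. Replicate 1 was the higher for skeletal muscle, at 345 and 3.49 RPKM over 5 genes led by CKM, and for the trophectoderm list, at 702 and 105 RPKM. The latter was nearly all IFNG, with ELF5 and GATA3 at 0. Stroma summed to 69452 and 44378 RPKM, mostly COL3A1, but its genes were divided. Among its 4 genes with a mean of at least 1 RPKM, each pig was the higher for 2. COL3A1 and LUM were higher in replicate 1, with both intervals below 1. LUM was at 2122 and 1224 RPKM, with an interval of 0.558 to 0.596. DCN was at 211 and 273 RPKM, with an interval of 1.10 to 1.51. VIM was at 19.5 and 24.9 RPKM, and its interval included 1. Epithelium summed to 11970.1 and 10845 RPKM, led by EPCAM with KRT8 at 0. Its 5 genes with such a mean were divided too, with 2 higher in replicate 1 and 3 in replicate 2. Their interval lay below 1 for 2 genes and above 1 for 1. Smooth muscle summed to 115 and 105 RPKM, led by DES with ACTA2 and CNN1 at 0. The genes of the epithelial list other than KRT8 were thus above 0 in both pigs.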

How the data were processed

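Endometrial RNA of 2 Yorkshire pigs (YK18) was sequenced, with 1 library per pig. RPKM per transcript is what the authors deposited, and HTSeq is named as their counting tool. The aligner and genome build are not given in the sources used here. Of 38222 mRNA accessions 16072 (42.0%) found a symbol in the Sscrofa11.1 gene table of RefSeq, with the version number ignored, and no coordinates were used. Unmatched rows were kept as features of their own.

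Library totals were taken from the steps of the lowest values, and the length of a row as the smallest up to 20000 nt at which both libraries gave whole reads, so true reads may be a multiple. The reads so found made up 90.2% and 90.3% of the totals. In a simulation with 24338 transcripts each total came back exactly, as did 84.3% of the lengths. The simulated 95% interval of the read ratio covered the true value for 95.9% of 16486 transcripts with at least 20 reads. That interval was worked out from the true simulated reads and totals, so its coverage with recovered reads was not tested. No count model was fitted and no p-value was computed, because the files hold 1 condition.

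The libraries were compared as log2(RPKM + 1), over features with a mean of at least 1 RPKM. The members and lists were chosen with earlier results of these data known. The text names the 10 members, the 2 highest genes of each vascular list, its genes past 2-fold, and the highest and the zero genes of cell type lists. VEGFB, PROX1, PGK1, CD34, EGFL7, LUM, DCN, VIM, GAPDH, B2M, EEF1A1, FTL and FTH1 were added to the text with their values known. So were further genes at 0 or without a matched row, and the list of genes used by every cell. Some genes of the lists are not reported here. Python 3.11.15, pandas 2.3.3, numpy 2.4.6, scipy 1.17.1 and matplotlib 3.10.9 were used.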

Additional observations from a re-analysis of the deposited data

How the results depend on the processing

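With 2 pigs the spread is known only roughly, and counting limits ANGPT1 most, with 58 and 43 reads. No paired analysis was possible because both libraries are of 1 condition. The ratio of ANGPT2 to ANGPT1 gave no value under any setting, as ANGPT2 was listed at 0. The level of ligands against receptors and endothelial genes, -1.40 on the log2 scale, became -1.98 in reads per 1000000 reads, -3.52 with all listed genes, ANGPT2 at 0 included, -3.44 against receptors only, -0.38 against endothelial genes only and -1.91 as a mean over the genes. It reversed to 2.29 with accessions matched by version number, where FLT1 and KDR had no row and PECAM1 kept only NM_213907.1. Leaving out FLT1 and KDR alone gave the -0.38 above. It ran from -1.55 to -1.25 with either replicate left out. FLT1 against KDR, -2.30, was -2.14 in reads and ran from -2.34 to -2.25 without a replicate. The count of members past the fold, 0 at 2-fold, was 1 at 1.5-fold, namely VEGFA, against 28.0% of all features. The 10 other vascular genes past 2-fold became 4 when the RPKM of a library was made to sum to 1000000 and 5 in reads, scales of smaller values on which a pseudocount of 1 weighs more. The share of all features went from 12.9% to 4.25% and 4.07% there. Of the other values of these comparisons, 44 stayed within the limits set, among them the 6 members above 0 with either replicate left out. These limits were the SD of the main value, or a 1.5-fold change for a count. The 44 thus include the fall of the members above 0 from 6 to 4 with accessions matched by version number. For single levels, with both replicates kept, 13 values moved beyond the SD between the pigs and 9 stayed within it. Among the former the level of PECAM1 went from 176 to 3.39 RPKM with accessions matched by version number, and the rest came with a change of unit. The share of all features past 2-fold was 18.2% and 18.7% with pseudocounts of 0.1 and 0.01.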
